A study of Homo sapiens with 4 samples.

Results

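Microglia-like cells derived from the established human embryonic line H9 were compared between the 4 cultures whose hashtag names carry the number 1 and the 8 cultures numbered 2 or 3. These are all 12 cultures of the series, 1 of each number in each of 4 conditions. A control culture received DMSO, then PBS. A semagacestat culture received that γ-secretase inhibitor at 2 µM for 22 h. An LPS culture received DMSO, with bacterial lipopolysaccharide at 200 ng/mL for the last 6 h, and a combined culture received both agents. All cultures came from precursors collected on day 25 and kept for 7 days in a medium with TGF-β, IL-34 and cholesterol, and actinomycin D was present while cells were collected. A cell was placed in a culture by its hashtag, an antibody-borne barcode unique to that culture, where the leading hashtag had at least 30 unique molecular identifiers (UMIs, counted RNA or tag molecules) and at least 3 times those of the next. Of these cells, those that showed 1000 or more genes and no more than 10% of mitochondrial UMIs entered the comparison. This left 16937 cells from the 2 libraries into which the pooled cells were divided, 5542 of them in the cultures numbered 1. What a number marks is not stated in the labels. Each number also goes with its own set of hashtag antibodies, so a difference between numbers cannot be told apart from a difference between those sets. All cultures are of 1 line, and same-numbered cultures may share a history, so that p-values measure only the spread among these 12 cultures.

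Microglia are the resident macrophages of the brain, and those grown from stem cells pass through dividing myeloid precursors before they mature. A cell that divides copies its DNA in S phase, with enzymes that make nucleotides and open the double helix, and then condenses and separates its chromosomes in G2 and mitosis. Mature microglia take up debris, break it down in lysosomes and shape the matrix around them. They can also show peptides to T cells on MHC class II molecules, whose genes need the coactivator CIITA.

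The kept cells carried macrophage transcripts in every culture. The 14 macrophage markers summed to 7614 to 8708 CPM (UMIs per culture scaled to a common total, as edgeR computes them) in number 1 and to 7399 to 8755 CPM in the other cultures. Of the microglial markers, TREM2 and CX3CR1 were present, TMEM119 stayed between 1.06 and 2.40 CPM, and SALL1 was too low to be tested. Pluripotent, erythroid and granulocyte markers each summed to at most 2.17 CPM in any culture. Mast cell and basophil markers reached 173 CPM, mostly HPGDS, and epithelial markers 67.7 CPM, both highest in number 1 in all 4 conditions. Endothelial markers reached 121 CPM, mostly PECAM1, and neural markers 14.5 CPM, both lowest in number 1 in all 4. Lymphoid and megakaryocyte markers reached 27.4 and 7.48 CPM. Between 1144 and 1979 cells per culture were kept, which held 34780161 to 60453967 UMIs per culture; the median cell held 28051 to 32132. Barcodes with 24 names occurred among the kept cells of both libraries.

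The cultures numbered 1 held more dividing cells, more RNA of MHC class II genes, and less RNA of members of 3 lists, which cover the matrix with its proteases and inhibitors, the lysosome, and disease-associated microglia. Counts were summed per culture and fitted with edgeR's quasi-likelihood test with condition as a term. Of 15383 genes, 1721 (11.2%) passed an adjusted p of 0.05 (Benjamini-Hochberg). Of these, 912 (5.93%) were higher in number 1 and 809 (5.26%) were lower. Most differences were small: 57 of the higher genes and 85 of the lower ones differed by more than 1.5-fold. Leaving out the number 1 culture of the control condition left 800 calls, leaving out that of semagacestat 1112, that of LPS 1168, and that of the combined treatment 1011. Counts within lists for such fits are to be read beside these totals.

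Number 1 cultures held more dividing cells in every condition. A cell was called dividing when, with its UMIs thinned at random to 10000, it held at least 5 UMIs of 10 cell cycle genes (MKI67, TOP2A, CDK1, BIRC5, UBE2C, TYMS, RRM2, TK1, PCLAF and NUSAP1). In number 1 the share of dividing cells was 20.2% in the control culture, 21.4% with semagacestat, 11.8% with LPS and 15.5% with both. In the 8 other cultures it ran from 7.84% over a median of 10.7% to 17.3%. Number 1 was highest in all 4 conditions, although the groups overlapped across conditions, because the LPS cultures held fewer dividing cells whatever their number. The ratio of number 1 to the mean of the others was 1.75 in the control condition, 1.29 with semagacestat, 1.39 with LPS and 1.47 with both. The mean within-condition difference was 5.43 percentage points (17.2 ± 4.43% against 11.8 ± 3.29%, SD over 4 and 8 cultures). A two-sided exact permutation test, which moves the number 1 among the 3 cultures of each condition, gave p = 0.0123, the smallest its 81 arrangements allow, and 0.0309 adjusted over 10 culture measures. Number 3 was above number 2 in all 4 conditions as well, by less. There were 230 cells with 4 of the marker UMIs and 181 with 5, next to the threshold.

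**Figure D1:**
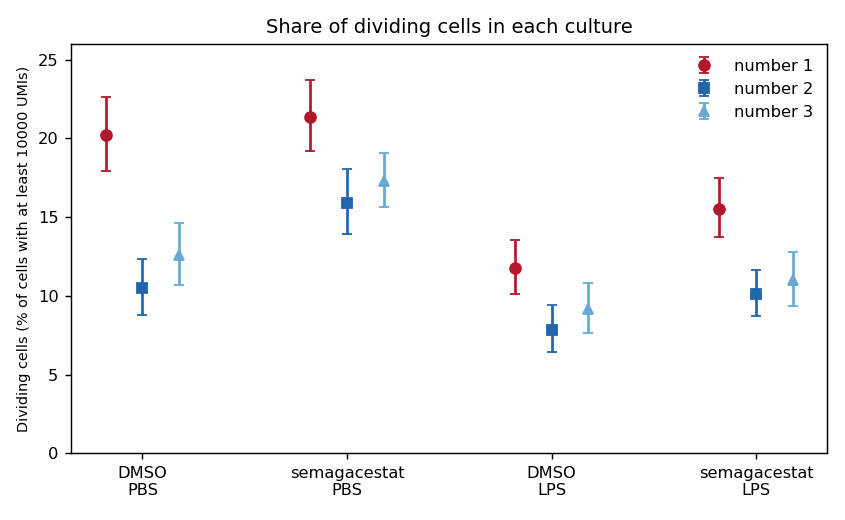
Share of dividing cells in each culture, as a percent of cells with at least 10000 UMIs, by condition (x axis) and culture number (colour and shape); bars are exact 95% binomial intervals and cover counting error only. Number 1 is the highest in each condition, from 11.8 to 21.4%, and the LPS cultures are lowest within each number.

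The genes of the dividing cell rose together in number 1. Of 40 genes of DNA replication and S phase, 38 were higher and 0 lower, with a median log2 fold change of 0.37. Of 40 genes of G2 and mitosis, 38 were higher and 0 lower, with a median of 0.50, and of 18 replication-dependent histone genes 13 were higher and 0 lower, with a median of 0.42. The 13 became 8 without the control or the combined culture numbered 1. The median over all 15383 genes was -0.0011. ORC1 and CCNE1 of the first list, and ECT2 and CDC25C of the second, did not pass the test. Of these members, 10 also defined the dividing cells.

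Short stretches before the start of 4 genes are shown because genes of these lists moved together and carry known promoter letters. Each is the 250 bases upstream of the start, 5′ to 3′ on the gene's strand, from RefSeq on GRCh38.p14. TYMS was taken as the S phase gene with the smallest adjusted p whose stretch holds an E2F match, and CKS2 by the same rule as a G2 gene that holds both CHR and CCAAT. HLA-DMA and HLA-DRB5, which code for MHC class II chains, were the first to hold the letters of the X box core and CCAAT. Capitals mark the matches, whatever their spacing. In HLA-DMA the AGCAAC match lies much farther from the nearest CCAAT match than in HLA-DRB5. Whether it is part of the X box of that gene was not tested. TYMS lies at chr18:657403-657652 on the plus strand, CKS2 at chr9:89310945-89311194 on the plus strand, HLA-DMA at chr6:32953098-32953347 on the minus strand and HLA-DRB5 at chr6:32530288-32530537 on the minus strand.
TYMS: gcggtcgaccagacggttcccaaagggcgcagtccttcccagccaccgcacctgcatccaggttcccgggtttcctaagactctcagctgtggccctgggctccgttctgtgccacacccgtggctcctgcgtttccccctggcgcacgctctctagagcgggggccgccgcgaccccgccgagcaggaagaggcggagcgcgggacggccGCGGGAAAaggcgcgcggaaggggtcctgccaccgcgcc
CKS2: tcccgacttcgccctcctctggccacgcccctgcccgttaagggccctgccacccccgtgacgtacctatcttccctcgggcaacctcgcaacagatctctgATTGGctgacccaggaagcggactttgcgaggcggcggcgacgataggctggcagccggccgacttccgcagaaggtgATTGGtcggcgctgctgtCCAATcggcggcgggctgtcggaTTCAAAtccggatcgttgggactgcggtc
HLA-DMA: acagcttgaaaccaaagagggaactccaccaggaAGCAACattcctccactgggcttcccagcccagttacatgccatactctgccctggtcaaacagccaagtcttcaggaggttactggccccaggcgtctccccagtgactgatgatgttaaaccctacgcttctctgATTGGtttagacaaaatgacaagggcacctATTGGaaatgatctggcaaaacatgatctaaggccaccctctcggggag
HLA-DRB5: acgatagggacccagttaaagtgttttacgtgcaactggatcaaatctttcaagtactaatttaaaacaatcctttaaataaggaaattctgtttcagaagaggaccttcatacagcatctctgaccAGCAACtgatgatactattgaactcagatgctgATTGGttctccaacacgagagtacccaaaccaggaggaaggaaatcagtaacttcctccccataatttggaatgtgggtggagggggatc

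Searched on both strands were TTTGGCGC, TTTCGCGC or TTTCCCGC for E2F, TTTGAA for the cell cycle homology region (CHR), CCAAT, and AGCAAC for the X box core. The table of promoters held 33 of the 40 S phase genes, 35 of the 40 G2 genes and 10 of the 12 MHC class II genes. An E2F match stood before 12 of the 33 S phase genes (36.4%) and before 2.38% of all 27305 promoters in the table. CHR and CCAAT together stood before 17 of the 35 G2 genes (48.6%) and before 4.85% of all. CCAAT stood before 9 of the 10 MHC class II genes (90%), and the X box core with it before 4 (40%), against 33 and 3.68% of all. These are counts of letters, with no limit on their spacing, and show no binding.

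TYMS, the enzyme that makes thymidylate for DNA, was the cell cycle gene of S phase with one of the larger differences. In number 1 its level was 86.0 CPM in the control culture, 91.7 with semagacestat, 57.3 with LPS and 77.3 with both. In the others it ran from 32.1 over a median of 52.4 to 70.3 CPM. TYMS was named by a rule that required number 1 to be highest in every condition. Its log2 fold change was 0.57 (SE 0.08, edgeR adjusted p = 0.00042). TK1, which salvages thymidine, showed 19.0, 23.4, 13.3 and 17.2 CPM in the number 1 cultures, in the same order of conditions, against 7.32 to 15.9 CPM in the others (median 12.2). Its log2 fold change of 0.59 had the smallest adjusted p of the S phase list, 6.2e-05. CLSPN, a checkpoint adaptor at the replication fork, differed by 0.54, FEN1, which trims the ends of newly made DNA fragments, by 0.48, and CDC6, which loads the replicative helicase, by 0.50.

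MKI67, which coats mitotic chromosomes and is the usual marker of dividing cells, stood at 76.8, 72.8, 50.7 and 70.3 CPM in the number 1 cultures. The other cultures ran from 31.7 over 45.2 to 57.1 CPM. Its log2 fold change was 0.56 (SE 0.08, edgeR adjusted p = 0.00064). BIRC5 (survivin), part of the complex that corrects chromosome attachment, was higher by 0.63 on the log2 scale, and the checkpoint kinases BUB1B and BUB1 by 0.57 and 0.46. CDK1, the kinase that starts mitosis, was higher by 0.51, and UBE2C, which helps end mitosis, by 0.55. CENPF, a kinetochore protein, also differed by 0.51. MKI67, CDK1, UBE2C and CENPF were named by a rule that required number 1 to be highest in each condition.

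HIST1H1B is a linker histone made in S phase. It had the largest rise among genes of at least 20 CPM that passed the test with number 1 highest in all 4 conditions. It stood at 35.7, 38.4, 23.6 and 35.8 CPM in number 1 and from 11.9 over 21.3 to 29.4 CPM in the others, a log2 fold change of 0.69 (SE 0.10, edgeR adjusted p = 0.00043). HIST1H4C, a core histone, stood at 189, 195, 149 and 185 CPM against 100.3 to 151 CPM, a change of 0.50. Histone genes are near-identical copies and most of their RNA has no poly(A) tail, so that their counts are uncertain.

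With the dividing cells left out, 771 genes (5.09% of 15148) still passed, and 724 of them were among the 1721. In that fit 9 of 40 S phase genes and 1 of 39 tested G2 genes were higher, with medians of 0.17 and 0.07, and 0 of 16 histones. Removing cells by cell cycle UMIs lowers these lists by construction, and choosing cells by them evens the lists out between cultures. Among the dividing cells alone, a comparison added after the data were seen, 37 genes passed (0.308% of 11994) and 914 had an unadjusted p under 0.05. There 0 of 40 genes passed in each of the cell cycle lists, with medians of 0.0047 and 0.05 (the edgeR test at an adjusted p of 0.05). CLSPN (0.47, adjusted p = 0.001) and FEN1 (0.24, adjusted p = 0.019) still passed in edgeR outside the dividing cells. Cells with fewer than 5 of the marker UMIs stayed in that fit, among them the 230 with 4, so that it may still hold cycling cells. Their part in these differences was not tested.

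**Figure D2:**
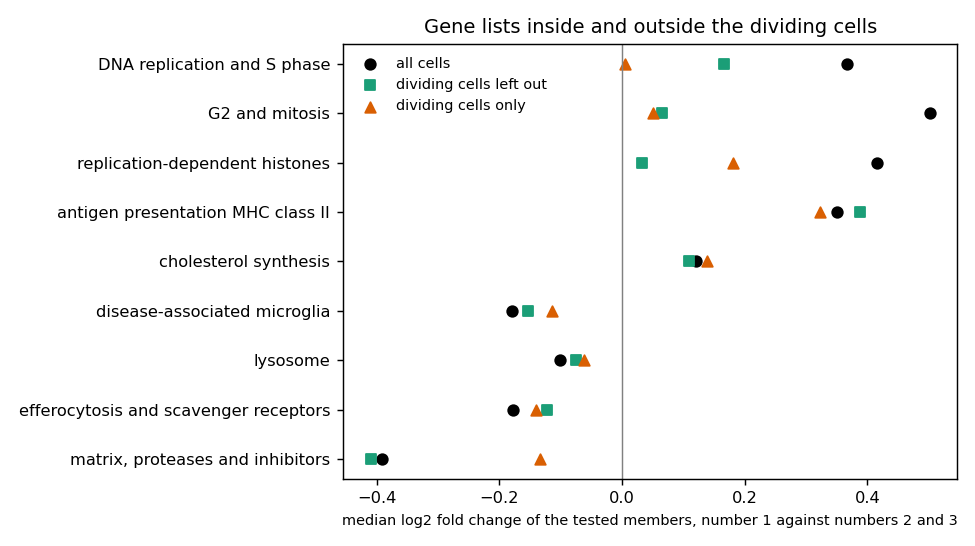
Median log2 fold change of the tested members of 9 gene lists (rows), number 1 against numbers 2 and 3, in all cells, with dividing cells left out, and in dividing cells only. MHC class II lies between 0.32 and 0.39 in all 3; the cell cycle lists lie nearer 0 in both subsets, which were themselves chosen by cell cycle UMIs.

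MHC class II was higher in number 1 in both kinds of cell. Of its 12 genes, 11 were higher and 0 lower, with a median log2 fold change of 0.35, and HLA-DOA did not pass (0.34, edgeR adjusted p = 0.52). In the 6 cultures without LPS, where 975 genes passed in all, 5 of 12 were higher and 0 lower, with a median of 0.26. With dividing cells left out 9 of 12 passed, and in dividing cells only 7 of 11, with medians of 0.39 and 0.32. HLA-DPB1, the β chain of HLA-DP, stood at 43.5, 42.9, 42.3 and 57.4 CPM in number 1. In the other cultures it ran from 26.3 over 30.7 to 38.1 CPM, so that all 4 number 1 cultures were above all 8 others. Its log2 fold change was 0.58 (SE 0.06, edgeR adjusted p = 0.00011). It was 0.55 (adjusted p = 0.00032) outside the dividing cells and 0.64 (adjusted p = 7.4e-05) within them.

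HLA-DRA, the α chain of HLA-DR, stood at 147, 144, 195 and 269 CPM in number 1 and from 98.5 over 131 to 183 CPM in the others, a log2 fold change of 0.46 (SE 0.07, edgeR adjusted p = 0.00081). Its partner HLA-DRB1 was higher by 0.24, and HLA-DRB5, whose promoter is shown above, by 0.42. The β chains of HLA-DR are close copies and HLA genes differ between people, so that the split of reads between them is uncertain. HLA-DPA1 was higher by 0.48 and HLA-DQB1 by 0.35. CD74, the invariant chain that escorts class II molecules, stood at 538, 528, 522 and 622 CPM against 432 to 521 CPM, a change of 0.24, and did not overlap with the other cultures. HLA-DMA, which helps load peptides, was higher by 0.28, and CIITA, low at 2.66 to 4.98 CPM in number 1, by 0.40 (edgeR adjusted p = 0.0043).

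Dendritic cells carry the same class II genes. The 10 dendritic cell markers summed to 42.8 to 121 CPM in number 1 and 34.4 to 111 CPM in the others, and were highest in number 1 in all 4 conditions. Of the 6 that could be tested 2 were higher and 0 lower, 4 markers were under 1 CPM in every culture, and LAMP3 reached the highest level. Their part in the result was not tested.

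Class II RNA was uneven between cells. Cells with at least 5 HLA-DRA UMIs per 10000, called HLA-DRA-high here, made up 13.1, 12.3, 14.2 and 20.8% of the number 1 cultures and 7.07 to 12.2% of the others (median 10.1%). All 4 cultures numbered 1 were above the others. In HLA-DRA-high cells, whose level starts at that threshold, the mean was 9.21 to 10.9 UMIs per 10000 in number 1 and 8.54 to 11.2 in the others. The remaining cells averaged 0.59 to 0.738 and 0.412 to 0.692 UMIs. The share of high cells thus moved by a factor of 1.34 to 1.83 within conditions, the level within high cells by 1.03 to 1.08, and the level in the remaining cells by 1.13 to 1.25, highest in number 1 in all 4 conditions. These shares come from the cells already compared, with genes chosen for their difference, and carry no test.

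In the list of the matrix, its proteases and their inhibitors every gene that passed was lower. Of its 19 tested genes, 12 were lower in number 1 and 0 higher. The median log2 fold change was -0.39, the lowest of the 27 lists. A positive log2 fold change, up to 0.62, was seen for 2 of the tested genes, which did not pass. MMP7 (matrilysin) is a secreted metalloprotease encoded at chr11:102520508-102530753 (GRCh38). It had the largest fall among genes of at least 20 CPM that passed the test with number 1 lowest in all 4 conditions. It stood at 94.2 CPM in the control culture numbered 1, 71.0 with semagacestat, 214 with LPS and 157 with both. The others ran from 144 over 253.8 to 369 CPM, and the rule that named MMP7 required number 1 to be lowest in each condition. The log2 fold change was -1.09 (SE 0.16, edgeR adjusted p = 0.00049).

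TIMP3, a matrix-bound inhibitor of metalloproteases, stood at 94.2, 85.9, 70.1 and 57.6 CPM in number 1 and from 84.6 over 133 to 230 CPM in the others. It was lower by -0.81 on the log2 scale (SE 0.12, edgeR adjusted p = 0.00051). CHI3L1, a secreted chitinase-like glycoprotein, stood at 200.2, 170.7, 410.3 and 362 CPM against 232 to 669 CPM (median 459), a log2 fold change of -0.63. PLAUR, the urokinase receptor, differed by -0.39 and TIMP2 by -0.18. FBP1, SPARC and CRABP2 were lower by -0.75, -0.62 and -0.89 in number 1, but did not meet the rule for the largest falls. That rule required at least 20 CPM, a passing test and number 1 lowest in each condition. MMP9 (-0.06), MMP2 (-0.06) and TIMP1 (0.01) did not pass the test.

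For MMP7, TIMP3 and CHI3L1 the share of high cells was lowest in number 1 in each condition. The levels in high and in remaining cells were both lowest in each condition for CHI3L1 only. MMP7-high cells, with at least 5 MMP7 UMIs per 10000, were 3.34, 2.62, 6.38 and 3.05% of the cells in number 1 and 5.03 to 10.2% of those in the other cultures (median 7.14%). Number 1 was lowest in each condition, at 0.399 to 0.633 of the mean of the other 2. Within MMP7-high cells the mean level was 16.8 to 32.8 UMIs per 10000 in number 1 and 21.3 to 30.1 in the others, and the remaining cells averaged 0.139 to 0.201 and 0.151 to 0.249 UMIs. TIMP3-high cells were 2.38 to 4.62% in number 1 against 3.97 to 8.85%, and CHI3L1-high cells 8.38 to 24.9% against 12.7 to 32.8%. Both were lowest in number 1 in all 4 conditions. Within conditions the MMP7 level in the remaining cells was 0.66 to 0.854 times that of the other cultures, lowest in number 1 in all 4. In MMP7-high cells the level was 0.661 to 1.19 times that of the other cultures, lowest in number 1 in 3. The CHI3L1 level was 0.814 to 0.858 times theirs in high cells and 0.822 to 0.888 times in the remaining ones, both lowest in all 4. The TIMP3 level was 0.848 to 0.999 times theirs in high cells and 0.657 to 1.02 times in the remaining ones. It was lowest in number 1 in 1 condition in high cells and in 3 in the remaining ones. Outside the dividing cells the MMP7-high share was 3.21 to 6.67% against 5.89 to 10.8%. In dividing cells only, MMP7 differed by 0.41 on the log2 scale (edgeR adjusted p = 0.81) and TIMP3 by 0.06 (adjusted p = 0.99).

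**Figure D3:**
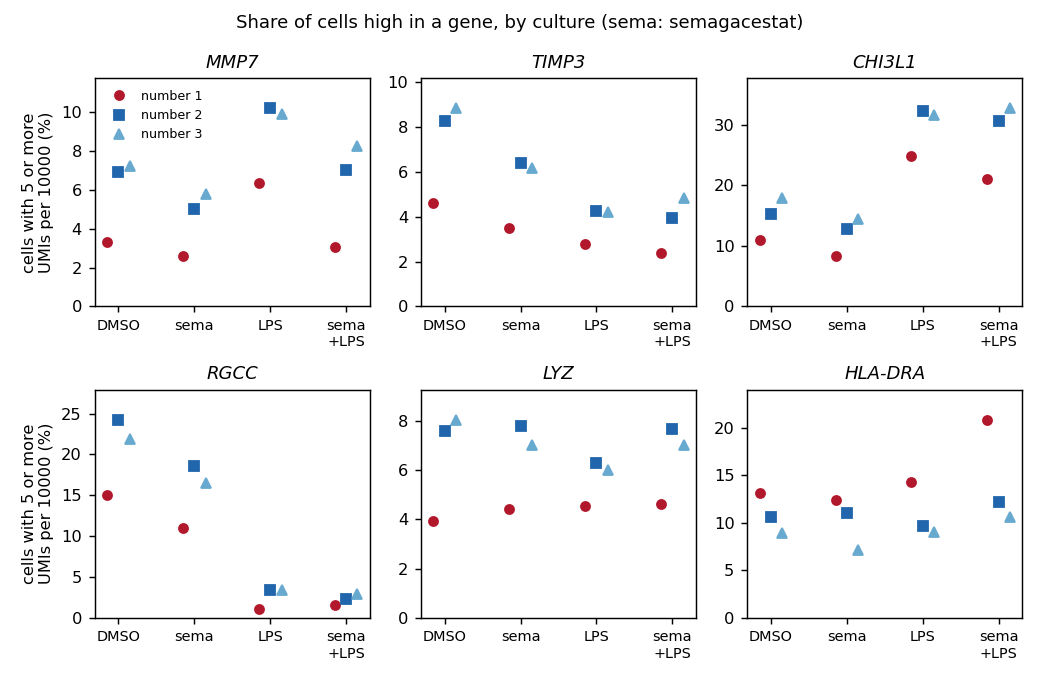
Percent of cells with at least 5 UMIs of a gene per 10000 (y axis, each panel on its own scale from 0) in each of the 12 cultures, by condition (x axis) and number (colour and shape). Number 1 is lowest in every condition for MMP7, TIMP3, CHI3L1, RGCC and LYZ and highest in every condition for HLA-DRA.

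Fibroblast and stromal markers moved with this group and are given beside it. Their sum was 5.09 to 6.63 CPM in number 1 and 6.54 to 58.8 CPM in the others, highest in the control and combined cultures numbered 2. There 2 and 3 cells with at least 10 of these UMIs held 77.8 and 90.4% of them. Of 7 tested markers, COL1A2 was lower in number 1 and the other 6 did not pass, and DCN, PDGFRB and POSTN were too low to test. With such cells left out of all cultures, 1700 genes passed, 903 higher and 797 lower.

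RGCC, a regulator of the cell cycle that TGF-β induces, had the smallest adjusted p of all the genes named here. It stood at 219.9, 182, 41.5 and 36.2 CPM in number 1 and from 54.2 over 168 to 371 CPM in the others. The spread across cultures came mainly from LPS, under which all numbers were low. Within each condition number 1 was lowest, as the rule that named RGCC required. The log2 fold change was -0.66 (SE 0.03, edgeR adjusted p = 2.5e-08). It was -0.68 against number 2 and -0.63 against number 3, and 0.05 between numbers 2 and 3 (edgeR adjusted p = 0.41). Of 16 tested TGF-β response genes, 5 were lower and 1 was higher, with a median of -0.10. The 5 became 1 without the control culture numbered 1, 2 without the semagacestat or the LPS culture of that number, and 3 without its combined culture, the control culture numbered 2 or the semagacestat culture numbered 3. Calls over all genes fell as well, from 809 lower genes to 360 without the control culture numbered 1. TGFBR2, a receptor subunit, was lower by -0.14 and lost its call when the control, semagacestat or LPS culture numbered 1 was left out.

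Genes of disease-associated microglia, a state described around amyloid plaques, were lower in number 1. Of 23 tested genes 18 were lower and 0 higher, with a median log2 fold change of -0.18. CD9, a tetraspanin, stood at 1548, 1230.0, 1241 and 982.5 CPM in number 1 and from 1264 over 1574 to 2054 CPM in the others, a log2 fold change of -0.36 (SE 0.04, edgeR adjusted p = 5e-05). TREM2, the lipid-sensing receptor of this state, stood at 459, 445, 299.8 and 259.3 CPM against 310 to 543 CPM (median 432), a change of -0.23. GPNMB, a glycoprotein of lysosome-stressed macrophages, was lower by -0.39, ITGAX, an integrin chain, by -0.36, and PLIN2, the coat of lipid droplets, by -0.33. SPP1 (osteopontin), at 30560 to 42680 CPM in number 1, was lower by -0.16. With dividing cells left out 16 of 24 were lower and 0 higher.

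Several of these genes work in lysosomes, and the lysosome list shared the direction. Both lists hold LIPA, so that their counts are not independent. Of 29 lysosome genes 15 were lower, 0 were higher and all 29 had a negative log2 fold change, with a median of -0.10. The 15 became 9 without the semagacestat culture numbered 1, where 474 genes were lower in all, and 3 in the 6 cultures with LPS. In those 6 cultures 61 of 14661 genes were lower in all, against 809 of 15383 in the full set. LGMN (legumain), an endopeptidase, stood at 255.8, 230.1, 170.2 and 167 CPM in number 1 and from 195 over 248.7 to 309 CPM in the others, a change of -0.29 (SE 0.03, edgeR adjusted p = 1.1e-05). LIPA, which frees cholesterol from its esters, differed by -0.28, CTSL, a cysteine protease, by -0.32, and CTSB by -0.19. Of 17 efferocytosis and scavenger receptor genes 9 were lower and 3 higher, with a median of -0.18. The 3 became 1 when any 1 of 7 cultures was left out: control, semagacestat or LPS of number 1, LPS or combined of number 2, and control or semagacestat of number 3. MSR1, a receptor for modified lipoproteins, was lower by -0.41 and SCARB2 by -0.25, while STAB1 (0.23) and TIMD4 (0.31) were higher.

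**Figure D4:**
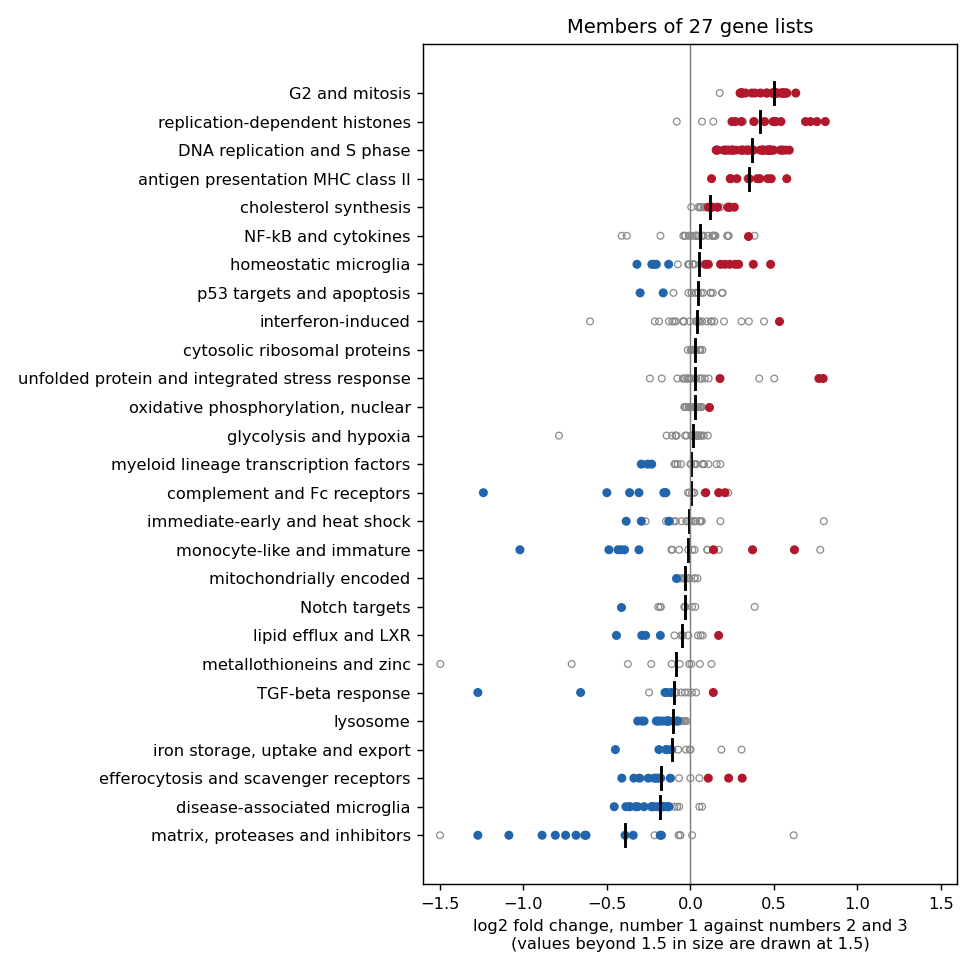
Log2 fold changes, number 1 against numbers 2 and 3, of the tested members of 27 gene lists (rows, ordered by their median); filled points passed the test (red higher, blue lower), open points did not, and black bars are medians. Cell cycle and MHC class II lists lie at the higher end, and the matrix, disease-associated microglia and lysosome lists at the lower end.

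Among the largest falls were genes of different roles, chosen by size. AQP9, a channel for water and glycerol, stood at 9.03, 7.00, 33.9 and 26.9 CPM in number 1 and from 10.9 over 33.1 to 51.1 CPM in the others, a log2 fold change of -0.76 (SE 0.08, edgeR adjusted p = 5.7e-05). C5AR1, the receptor of complement C5a, differed by -0.50 and SLC11A1, a metal transporter of the phagosome, by -0.45. NR1H3, the oxysterol receptor LXRα, was lower by -0.44, and its target APOE by -0.18. GLDN and RAMP1 were lower by -0.61 and -0.48. SLC16A10, an amino acid transporter, depended on number 3. It differed by -0.86 against number 3, by -0.29 against number 2 (edgeR adjusted p = 0.086), and it lost its call when any 1 of 5 cultures was left out.

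Homeostatic microglial genes passed in both directions. Of 24 tested, 9 were higher and 5 lower, with a median of 0.05, and these became 5 and 3 without the control culture numbered 1. The list summed to 5764 to 6415 CPM in number 1 and 5365 to 5947 CPM in the others, and was highest in number 1 in all 4 conditions. Among the higher ones were AIF1 (0.24), a marker of microglia that bundles actin, C1QA (0.21), which starts the complement cascade, and the receptors P2RY13 (0.48) and CX3CR1 (0.27). ITGAM (-0.32) and MERTK (-0.20) were among the lower ones, and P2RY12 (0.18) and TMEM119 (-0.07) did not pass the test. The monocyte-like list was mixed as well, with 3 higher and 6 lower of 19 tested. LYZ, which cuts bacterial cell walls, stood at 107, 122, 108 and 137 CPM in number 1 and from 142 over 151 to 199.7 CPM in the others. All number 1 cultures were below all others, and the log2 fold change was -0.43 (SE 0.06, edgeR adjusted p = 0.00021). LTB (lymphotoxin β) went up by 0.62.

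Of 22 cholesterol synthesis genes 8 were higher and 0 lower, with a median of 0.12, where 5.93% of all genes were higher. The 8 became 3 without the semagacestat culture numbered 1, 4 without the control or the LPS culture of that number, and 5 without the combined one. FDPS, which makes farnesyl diphosphate, was higher by 0.23 and the sterol isomerase EBP by 0.24. Among 23 stress response genes 3 were higher, ATF4 (0.18) and the serine synthesis enzymes PSAT1 (0.80) and PHGDH (0.77). PSAT1 stood at 11.1, 10.3, 11.5 and 19.3 CPM in number 1 and from 4.61 over 7.27 to 11.1 CPM in the others (edgeR adjusted p = 0.00023). In edgeR 0 of 22 glycolysis genes, 0 of 36 ribosomal protein genes and 0 of 10 metallothionein and zinc genes passed. One nuclear gene of 40 for oxidative phosphorylation was higher (ATP5MC1, 0.11), and 1 of 13 mitochondrial genes was lower (MT-CYB, -0.08). ATP5MC1 lost its call without the control or the LPS culture numbered 1, and MT-CYB without the control, the semagacestat or the combined culture of that number.

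The counts of inflammatory genes that passed are given beside the shares of all genes, 5.93% higher and 5.26% lower. Of 30 NF-κB and cytokine genes 1 was higher, the chemokine gene CCL2 (0.35), and of 27 interferon-induced genes 1, CXCL10 (0.53). CXCL10 lost its call when the combined culture numbered 1 was left out. Of 10 tested Notch targets 1 was lower, DTX1 (-0.41), at 1.82 to 4.66 CPM in number 1, and it lost its call when any 1 of the 4 number 1 cultures was left out. Among 19 tested myeloid transcription factors 3 were lower, CEBPB (-0.23), MITF (-0.25) and EGR2 (-0.29), and SPI1 did not pass (0.00). EGR2 lost its call when any 1 of 6 cultures was left out.

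**Figure D5:**
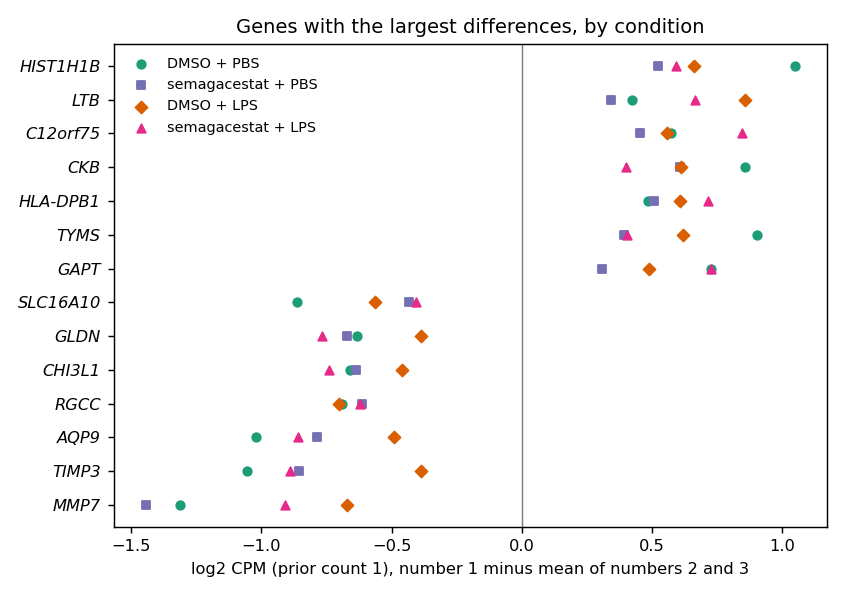
Difference in log2 CPM between the number 1 culture and the mean of the cultures numbered 2 and 3 within each condition (colour and shape), for the 7 largest rises and the 7 largest falls chosen by the rule for named genes. The rule required 1 sign in all 4 conditions, so only the sizes are informative; MMP7 ranges most widely.

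Numbers 2 and 3 also differed from each other. Number 1 against number 2 gave 2082 genes (13.5%), number 1 against number 3 gave 2280 (14.8%), and number 2 against number 3 gave 829 (5.39%). CHI3L1 was lower by -0.29 and C5AR1 by -0.27 in number 2 than in number 3, while HLA-DPB1 was higher by 0.25 (edgeR adjusted p = 0.0086, 0.0067 and 0.0071). TYMS differed by -0.21 (adjusted p = 0.14) and MKI67 by -0.19 (adjusted p = 0.21) between those numbers in edgeR. The first pair of comparisons shares the number 1 cultures.

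The difference of number 1 was not found to depend on treatment. In edgeR no gene passed for the interaction of number with LPS (0%, 543 of 15383 genes with an unadjusted p under 0.05). None passed for that with semagacestat (0%, 398 genes). DESeq2 called 0 genes for the first and 1 for the second. Interactions were estimated with more error than the difference itself, for MMP7 with an SE of 0.27 for that with LPS against 0.16, so that a dependence could be missed. In separate edgeR fits 975 genes passed in the 6 cultures without LPS and 134 in the 6 with LPS. Number 1 against the others accounted for a median of 2.62% of a gene's variance between cultures. Semagacestat accounted for 1.64% and LPS for 67.2%, each with 1 degree of freedom, as for number 1. Number with 3 levels took 7.66% with 2 degrees of freedom. The rest, after condition and number, took 10.7% with 6. The share of number 1 was above that of semagacestat in 8967 genes (58.29%) and above that of LPS in 2314 (15.04%).

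Measures of RNA quality moved with the number. Of hashtagged cells with at least 1000 genes, the share over 10% mitochondrial UMIs was 30.6, 26.6, 20.3 and 22.4% in number 1. It was 24.3 to 37.8% in the others, and lowest in number 1 in all 4 conditions. In kept cells the mitochondrial share of UMIs was 7.81 to 8.21% against 7.87 to 8.38%, again lowest in number 1 in each condition. Ribosomal protein genes took 15.3 to 16.9% of UMIs in number 1 against 14.7 to 16.7%, highest in each condition. Each of these 3 had p = 0.0123 and an adjusted p of 0.0309 in the exact permutation test. Median UMIs, genes and kept cells per culture and hashtag UMIs had adjusted p of 0.22 to 0.88. Allowing up to 20% mitochondrial UMIs gave 2346 calls, and the part of RNA quality in the gene differences was otherwise not tested.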

How the data were processed

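The data are droplet-based single-cell RNA counts of 12 hashtagged cultures, made with 10x 3' v3.1 chemistry in 2 libraries. Per the file headers the deposited values are raw UMI counts per gene and hashtag for each barcode, written by Cell Ranger 6.0.1, with no normalization by the authors. The submitters' processing notes name Cell Ranger 3.0.2, Seurat 4.1.1 and hg38, and the gene annotation used for counting is not given there. Gene positions come from GENCODE 29, which holds 94.58% of the 36601 gene IDs.

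Of 28943 barcodes, 24662 were placed in a culture. Requiring a 3-fold lead of 1 hashtag removes doublets between cultures whose hashtags are of similar depth. The median depth ran from 311 to 1643 UMIs between cultures, so that some doublets between cultures may remain. Doublets within a culture were not removed, and no doublet caller was run. Each culture's UMIs were added up across the libraries and fitted with edgeR 4.0.16 (R 4.3.3; TMM, filterByExpr, quasi-likelihood test; terms for condition and number 1). Adjusted p-values are Benjamini-Hochberg over 15383 genes. The standard error is the log2 fold change divided by the root of F. DESeq2 1.42.0 is an alternative. Named genes are the 12 largest rises and falls of at least 20 CPM with number 1 outside both other cultures in all 4 conditions, and up to 4 members of each of 27 lists with the smallest adjusted p. A few genes picked this way are left out of the text. Other list members given with values were chosen after these were seen. The members and lists were chosen with earlier results of these data known, and the shares of high cells were added after seeing the data. List genes matched the files by symbol or RefSeq synonym in 732 of 733 entries. CPM use TMM-scaled totals. High-cell and dividing shares leave out 349 cells under 10000 UMIs. Intervals cover counting error only.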

Additional observations from a re-analysis of the deposited data

Results flagged for a closer look

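A value was singled out where its gap to the nearest other value was large for its group of 4 or 8 cultures (Dixon's test at 95%). Chance gives about 1 in 20, and 6 flags arose in 96 groups.

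HLA-DPB1 stood at 57.4 CPM in the combined culture numbered 1, above the other 3 of that number. CDK1 stood at 41.3 CPM in the LPS culture numbered 1, below the other 3. Fibroblast and stromal markers summed to 58.8 CPM in the combined culture numbered 2, far above the rest. Neural markers summed to 10.3 CPM in the LPS culture numbered 1, above the others of that number, and TUBB3 was the most abundant of them. In the combined culture numbered 1, 1.85% of hashtagged cells had under 1000 genes, the most of that number. The semagacestat culture numbered 2 had a median of 5123 genes per kept cell, the most of the 8.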

How the results depend on the processing

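No paired analysis was possible because the culture number is itself what was compared; condition was a term of every fit but 1. The difference in the share of dividing cells was 3.95 to 6.26 percentage points under 8 other settings, each at the smallest p that 81 arrangements allow. It was 4.35 to 6.15 points with 1 culture left out, where the smallest unadjusted p allowed is 0.0185 or, without a number 1 culture, 0.037. Against 1721 genes for number 1 against the others, the count was 0 without the condition terms, 922 in library 2 only, 771 with dividing cells left out, 37 in dividing cells only, 975 in the 6 cultures without LPS and 134 in the 6 with LPS. Leaving out 1 culture gave 800 to 1770. DESeq2's Wald test gave 1346 genes there, 1326 for number 1 against number 2, 1354 for number 1 against number 3, and 1 for the semagacestat interaction. With dividing cells left out those comparisons of number 1 with number 2 and with number 3 gave 1033 and 1498. The cause of these shifts was not tested. Of 88 named genes past the threshold, 75 passed in all 12 fits that each left out 1 culture. CDK1 reversed, to -0.019, with dividing cells left out. In dividing cells only MMP7 (0.41), TIMP3 (0.059), ATF3 (0.21), TP53I3 (0.057) and MT2A (0.22) reversed.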

Other observations

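Hashtag depth differed between cultures in a way that the groups do not explain. The median UMI count of the leading hashtag was 359.5 in the control culture numbered 3 and 311 in the LPS culture numbered 3, against 734 to 1643 in the other 10. In those 2 cultures the second hashtag reached 10.4 and 12.0% of the leading one, against 2.39 to 5.11% elsewhere. A stricter hashtag rule, with at least 100 UMIs and 10 times the next, kept 545 and 470 cells there and called 1545 genes for number 1 against the others, 1388 of them among the 1721.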
